A study of Mus musculus with 3 samples.

Results

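The change described here is that between 3 h and 6 h of exposure to cycloheximide in E14 cells, which are embryonic stem cells of the mouse from the 129/Ola background, measured by single-cell RNA sequencing. It compares 1 library of cells treated for 6 h with 1 library treated for 3 h. Cells were barcodes with at least 15000 unique molecular identifiers (UMIs) of which 1 to 20% came from mitochondrially encoded genes, which gave 1739 cells at 3 h and 2554 at 6 h, 4293 of the 6480 cells in the series. Their UMIs were summed per library and scaled to CPM, counts per 1000000 UMIs of that library. Of 32285 listed genes, 7608 reached a mean of 10 CPM across the 3 libraries of the series. The third library, a control, enters that mean and otherwise serves to place the treated libraries. All cells grew in serum with leukemia inhibitory factor (LIF), and treatment began 24 h after seeding. Treated cells received 250 µg/mL cycloheximide dissolved in 0.007% ethanol. Control cells received ethanol alone for 6 h, so the 3 h library has no ethanol control of equal duration. Per the labels' protocols, cells of each library were detached, frozen and thawed before droplets were made, and polyadenylated RNA was tagged near its 3′ end.

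Cycloheximide blocks the elongation step of translation. A cell under the drug can still make and destroy mRNA, but it loses short-lived proteins, among them feedback inhibitors, transcription factors and decay factors, and mRNAs whose decay is coupled to translation can be spared. In embryonic stem cells LIF signals through JAK kinases and STAT3 to hold the naive state, while FGF4 signals through ERK kinases, whose activity is restrained by feedback genes such as the Sprouty and DUSP families. In untreated cells many mRNAs of these circuits are short-lived, and their level follows transcription closely. Whether it does so under the drug was not tested, as neither transcription nor decay was measured here.

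The kept cells held 106842407 UMIs at 3 h and 140321458 at 6 h, against 111447486 in the control, and the median per cell was 51726, 46200 and 43160 UMIs in that order. Mitochondrially encoded genes gave 3.51% of UMIs at 3 h, 2.94% at 6 h and 4.57% in the control. The 7 embryonic stem cell markers (Pou5f1, Sox2, Nanog, Zfp42, Esrrb, Dppa5a and Tdgf1) summed to 7478 CPM at 3 h and 6841 at 6 h. Dppa5a made up most of that sum, and the other 6 together measured 2152 CPM at 3 h and 1367 at 6 h. Sox2, Zfp42 and Esrrb were lower by the fold used below, and Dppa5a was the only marker with a ratio above 0. Markers of feeder fibroblasts, primitive endoderm, mesendoderm, neuroectoderm and trophoblast summed to at most 25.6 CPM per list in either library, and 3 of the 7 fibroblast markers were at 0 in all libraries. Doublets were not removed and no doublet caller was run, and 1 barcode was shared between the kept cells of the 3 h and 6 h libraries. With 1 library per group there is no replicate check: no test was made, and the 95% intervals below are exact and cover counting error only.

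Between 3 h and 6 h, genes were called higher or lower where the log2 ratio of 6 h to 3 h was at least 0.5 in size, which is 1.41-fold. By this rule 246 genes were higher at 6 h (3.23% of the 7608) and 280 were lower (3.68%). The floor of 10 CPM includes the control, so some genes passed it through the control alone. With the floor taken over the 3 h and 6 h libraries, 283 genes were higher and 257 lower. The later step was narrower than the first. The central 90% of log2 ratios spanned 0.88 between 3 h and 6 h and 1.36 between control and 3 h. The median log2 ratio of 6 h to 3 h was 0.04, and 57.7% of genes were above 0. Large ratios lay on the falling side: 50 genes had a log2 ratio of -1 or less and 11 had a ratio of 1 or more. Ratios ran from -3.19 for Egr1 to 1.74 for Gadd45g. CPM fixes the total of each library, and the split depends on that. With TMM factors, which moved every log2 ratio by -0.11, 115 genes were higher and 470 lower. With UMIs averaged per cell instead, which moved it by -0.16, 83 were higher and 607 lower. The share of called genes that were higher was thus 46.8% on the CPM scale, 19.7% with TMM factors and 12% per cell.

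The 3 libraries divide the genes by what happened in each interval. The first step is the 3 h library against the control, in which 17.9% of genes were higher and 3.21% lower by the same fold. Both steps use the 3 h library, so counting or library error in it enters the 2 ratios with opposite sign. Of the 1361 genes raised at 3 h, 179 (13.2%) rose further, 1153 (84.7%) stayed within the fold of their 3 h level and 29 (2.13%) turned back. Of the 244 genes lowered at 3 h, 73 (29.9%) fell further, 170 (69.7%) were held and 1 turned back. Held means within the fold of the 3 h level, not level with it. The median late log2 ratio was 0.18 in genes raised and held and -0.24 in genes lowered and held, against 0.04 over all genes. Among the 6003 genes within the fold at 3 h, 66 (1.10%) rose and 178 (2.97%) fell in the later interval alone. Most genes, 5759 (75.7%), stayed within the fold at both steps.

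**Figure D1:**
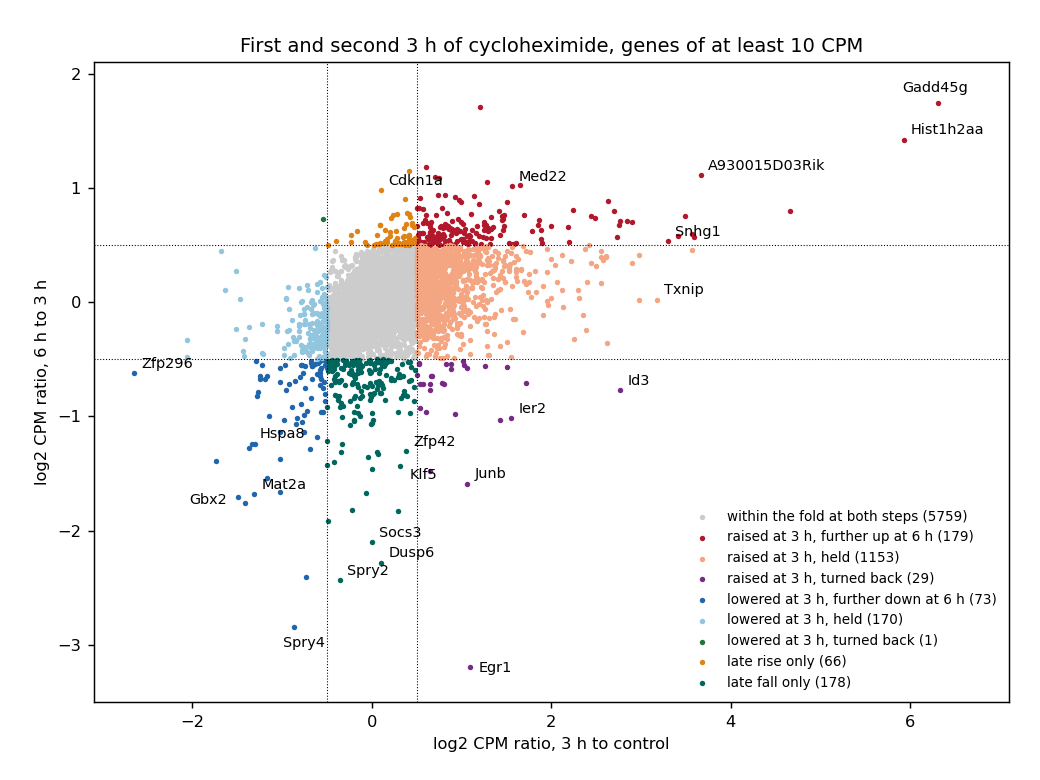
Each point is 1 of 7608 genes, with the log2 CPM ratio of 3 h to control on the horizontal axis and of 6 h to 3 h on the vertical axis; dotted lines mark 0.5 in either direction, and colours give the 9 groups with their numbers of genes. Points in the lower middle (178 genes) had been near the control level at 3 h and were lower by 6 h, and 29 genes at the lower right had been raised at 3 h.

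The share of genes that went on differed by direction and by how far they had already moved. Of 1032 genes raised at 3 h by a log2 ratio between 0.5 and 1, 9.30% rose further. That share was 22.2% of the 279 genes raised by 1 to 2, and 42.0% of the 50 genes raised by more than 2. Among lowered genes, 24.4% of the 205 with a first step between -0.5 and -1 fell further, 61.1% of the 36 with a first step between -1 and -2, and 1 of the 3 beyond -2. Rises had covered more of their course at 3 h than falls had. For the 658 genes with a log2 ratio of 6 h to control of at least 1, the median share of that ratio already present at 3 h was 71.8% (quartiles 63.2% and 82.2%). For the 183 genes with a ratio of -1 or less it was 49.2% (quartiles 34.6% and 64.2%).

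The feedback genes of the ERK pathway were the group most lowered in the later interval by its median. Of 13 listed, 9 exceeded 10 CPM. Of these 9, 8 were lower at 6 h than at 3 h and none was higher, against 3.68% and 3.23% of all genes. Their median log2 ratio was -1.04, against 0.04 over all genes. Spry4, a Sprouty inhibitor of receptor signalling, measured 51.9 CPM in control cells, 28.5 after 3 h and 3.97 after 6 h. Spry2, of the same family, measured 90.0, 70.5 and 13.0 CPM. Dusp6, a phosphatase that inactivates ERK, measured 36.6, 39.5 and 8.11 CPM. Spry4 had begun to fall at 3 h, whereas Dusp6 was near its control level then, and all 3 were far below both earlier libraries at 6 h. The log2 ratio of 6 h to 3 h, with its 95% interval, was -2.84 (-2.98 to -2.71) for Spry4, -2.43 (-2.51 to -2.36) for Spry2 and -2.28 (-2.38 to -2.19) for Dusp6. The Spred inhibitors followed, Spred2 at -1.24 and Spred1 at -1.03, with the ETS transcription factor Etv5 at -1.04. Etv4, another ETS factor, was the member within the fold, at -0.41.

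Spry2 is a protein-coding gene at chr14:105891947-105896819 on the minus strand and Dusp6 one at chr10:99263231-99267489 on the plus strand (GENCODE M21, GRCm38, to which identifiers were matched). Their promoters are shown because both genes had lost most of their transcript by 6 h while near or little below the control level at 3 h. Each sequence runs from 250 bases before to 50 bases after the start site in RefSeq (GRCm38.p6), at chr14:105896770-105897069 (minus strand) for Spry2 and chr10:99262981-99263280 (plus strand) for Dusp6.
Spry2 promoter: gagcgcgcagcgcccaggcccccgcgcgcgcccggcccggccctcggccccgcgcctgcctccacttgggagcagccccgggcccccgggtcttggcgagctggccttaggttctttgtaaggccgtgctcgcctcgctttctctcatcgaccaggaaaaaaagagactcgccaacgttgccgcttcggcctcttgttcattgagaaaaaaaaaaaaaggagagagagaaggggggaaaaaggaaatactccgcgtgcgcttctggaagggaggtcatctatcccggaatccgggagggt
Dusp6 promoter: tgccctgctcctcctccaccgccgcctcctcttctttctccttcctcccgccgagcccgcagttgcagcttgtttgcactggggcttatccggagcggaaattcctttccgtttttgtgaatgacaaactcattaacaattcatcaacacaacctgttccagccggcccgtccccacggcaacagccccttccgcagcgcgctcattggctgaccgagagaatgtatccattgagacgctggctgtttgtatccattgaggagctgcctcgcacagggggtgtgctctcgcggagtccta
Neither window holds any of the 4 motifs searched on both strands, namely TGANTCA (AP-1), TTCNNNGAA (STAT), CACGTG (E-box) and GGAAGT (ETS). Nor did those of Inhbb, Med22 and Cdkn1a, which were searched in the same way. Among genes with a RefSeq promoter, GGAAGT was found in 16.3% of the 208 lower at 6 h, 24.9% of the 189 higher at 6 h and 31.3% of all 6081 of the 7608 genes with an entry. TGANTCA was found in 7.69%, 3.70% and 4.03% of the same groups, and TTCNNNGAA in 5.77%, 6.88% and 6.51%.

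The LIF and STAT3 circuit lost the transcript of its feedback inhibitor late, and few of its other members passed the fold on the CPM scale. Of 17 listed, 11 exceeded 10 CPM, 3 of them were lower and none higher, with a median of -0.40, and 6 were lower with TMM factors or per cell. The share of all genes that were lower was 3.68% on the CPM scale, 6.18% with TMM factors and 7.98% per cell. Socs3, which blocks the JAK kinases at the LIF receptor, measured 49.9 CPM in control cells, 49.8 after 3 h and 11.6 after 6 h, a late log2 ratio of -2.10 (-2.18 to -2.02). On the CPM scale its level at 3 h could not be distinguished from the control beyond counting error, and the fall was seen in the second interval. TMM factors move every log2 ratio of 3 h to control by -0.17, and UMIs per cell move it by 0.27. With 1 library per group, variation between libraries could not be judged. The kinase gene Pim3 (-0.87) and the transcriptional cofactor gene Bcl3 (-0.74), both known STAT3 targets, were the others past the fold. Stat3 itself measured 48.3 CPM in control cells, 79.0 after 3 h and 57.0 after 6 h, so it rose in the first interval and lay within the fold in the second (-0.47). The receptor genes Lifr (-0.31) and Il6st (0.04) stayed within the fold.

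Most naive pluripotency genes were lower at 6 h than at 3 h. Of 13 listed, 12 exceeded 10 CPM. All 12 had a late ratio below 0 and 7 were lower by the fold, against 3.68% of all genes, with a median of -0.67. At 3 h, 3 of the 12 had been higher than the control and 4 lower, against 17.9% and 3.21% of all genes. Klf5, a Krüppel-like factor of the naive network, measured 358 CPM in control cells, 446 after 3 h and 165 after 6 h, a late log2 ratio of -1.43 (-1.46 to -1.41). The 3 h library was the highest of the 3 for this gene and the 6 h library the lowest. Klf4 (134, 186 and 111 CPM in the control, 3 h and 6 h libraries), Tbx3 (98.6, 155 and 91.0) and Esrrb (64.0, 95.1 and 57.7) had the same order of libraries, with late log2 ratios of -0.74, -0.77 and -0.72. Gbx2, a homeobox gene of the LIF response, instead fell through both intervals, from 95.3 to 33.8 and 10.4 CPM. Tet2, which oxidises methylcytosine, also fell in both (89.7, 62.5 and 34.4 CPM). Klf2 (-0.15), Nr5a2 (-0.24) and Nr0b1 (-0.30) stayed within the fold.

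The core pluripotency list divided. Of its 13 members, 3 were lower by the fold and none higher, against 3.68% and 3.23% of all genes, and the median was -0.26. Zfp42, a zinc finger marker of undifferentiated cells, measured 455 CPM in control cells, 592 after 3 h and 239.6 after 6 h. Sox2, the partner of Oct4 on DNA, measured 213, 285 and 146 CPM. Both were highest at 3 h and lowest at 6 h, with late log2 ratios of -1.30 (-1.32 to -1.29) and -0.97 (-0.99 to -0.94); Sox2 lies within Sox2ot on the same strand, so reads of the 2 may be shared. Utf1, a chromatin-bound factor, was the third (-0.61). Pou5f1, which encodes Oct4, measured 533, 579 and 465 CPM in the 3 libraries and Nanog 123, 175 and 145 CPM, and their late ratios of -0.32 and -0.26 were within the fold. Dppa5a, an RNA-binding protein gene, was nearly level (4771, 5327 and 5475 CPM).

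**Figure D2:**
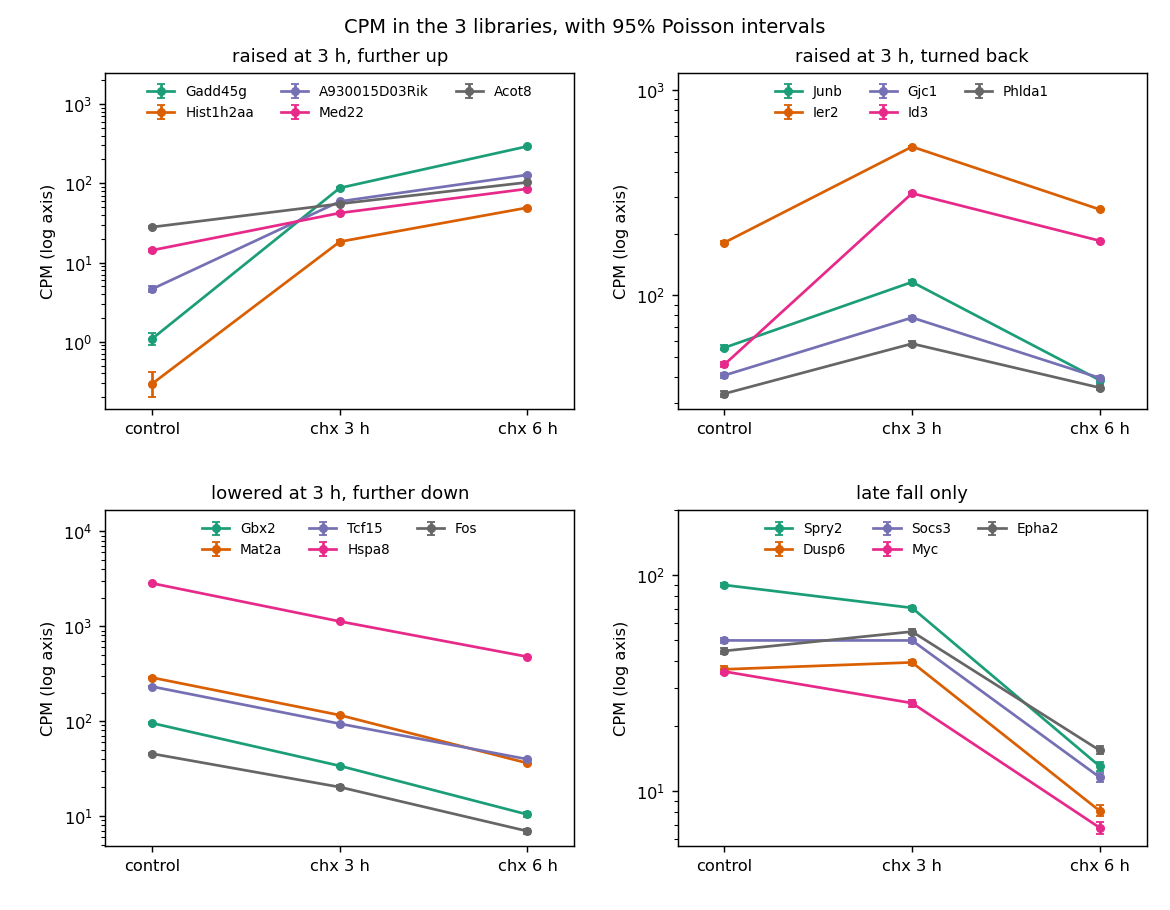
CPM on log axes in the control, 3 h and 6 h libraries for the 5 leading genes of 4 groups, with exact 95% Poisson intervals. The late-falling genes at the lower right are lowest at 6 h; at 3 h Socs3 is level with the control (49.8 against 49.9 CPM), while Spry2 (70.5 against 90.0) and Myc (25.6 against 35.8) are below it within the fold. The genes at the upper right are highest at 3 h.

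Other growth and patterning genes with the largest late falls belonged to several pathways. Myc, a transcription factor of growth, measured 35.8 CPM in control cells, 25.6 after 3 h and 6.78 after 6 h, a late log2 ratio of -1.92 (-2.02 to -1.81), and its paralog Mycn 29.7, 29.8 and 10.8 CPM (-1.46). Their binding partner Max was within the fold (0.23), and 3 of the 6 members of the Myc network above 10 CPM were lower and none higher. Inhbb, which encodes an activin subunit, measured 37.8, 22.8 and 4.30 CPM, a late ratio of -2.41 (-2.54 to -2.28). Lefty1, a Nodal antagonist, stood at -1.33 and Smad7, an inhibitory SMAD, at -0.85, while Nodal itself had risen at 3 h and was held (31.3, 70.5 and 79.8 CPM). In all, 4 of 9 Nodal and activin members were lower and none higher. Of 8 Wnt members above 10 CPM, the receptor genes Fzd5 (-1.67) and Lgr4 (-1.28) were lower and none was higher. The counts in the Myc, Nodal and Wnt lists stand beside 3.68% lower and 3.23% higher over all genes. Lgr4 exceeded 10 CPM in the control alone (21.7, 8.38 and 3.46 CPM in the control, 3 h and 6 h libraries). The ephrin receptor gene Epha2 measured 44.6, 54.8 and 15.5 CPM, and Noct, whose product is named nocturnin, 81.2, 69.6 and 19.7 CPM. For Epha2 the 3 h library was the highest of the 3.

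Many short-lived mRNAs carry AU-rich elements in the 3′ untranslated region, and the heptamer TATTTAT is a common core of such elements. It occurred in the annotated 3′ region of 37.4% of the 273 genes lower at 6 h that had one (exact 95% interval 31.6 to 43.4%), 25.1% of 223 genes higher at 6 h (19.6 to 31.3%) and 29.7% of 7487 genes in all. Among the 29 genes that turned back it was 14 (48.3%, interval 29.4 to 67.5%). Longer regions hold the heptamer more often, and the median length was 1397 bases in the lower genes, 875 in the higher and 1087 in all. Within regions of 500 to 1000 bases the shares were 28.1% of the lower, 21.8% of the higher and 20% of all genes. Within 1000 to 2000 bases they were 34.8%, 26.9% and 32.2%, and within 2000 to 4000 bases 56.5%, 51.9% and 50.1%. Of the 12 largest late falls among genes averaging 20 CPM or more, 8 held the heptamer, while Inhbb, Dusp6, Myc and Junb did not, nor did Egr1, whose mean was below 20 CPM. Examples chosen from those that held it are given below 5′ to 3′ on the transcript strand, with the first heptamer of the region in capitals, at chr14:105892094-105892118 (minus strand), chr11:117966141-117966165 (minus strand), chr4:141328590-141328614 (plus strand) and chr3:51250860-51250884 (plus strand) of GRCm38, all in 3′ untranslated exons.
Spry2: tgtaaagaaTATTTATttgaagttt
Socs3: ttgcacataTATTTATatttatact
Epha2: ctggaacttTATTTATttctgtttc
Noct: atttcaagtTATTTATttgtgggat
Each of these 4 regions held 2 such heptamers, and in Socs3 the second overlaps the first by 1 base and stands in lower case after it. A match describes the sequence and was not tested as a cause of the fall.

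Immediate early genes, which are transcribed within minutes of a stimulus, included several that rose first and then turned back. Of 27 listed, 14 exceeded 10 CPM. In the first interval 9 of these were higher than the control and 3 lower, against 17.9% and 3.21% of all genes. In the second none was higher and 7 were lower, against 3.23% and 3.68% of all genes, with a median late ratio of -0.51. Junb, an AP-1 subunit, measured 55.6 CPM in control cells, 116 after 3 h and 38.6 after 6 h. Ier2, a small nuclear protein gene, measured 181, 529.8 and 262 CPM. Egr1, a zinc finger factor induced through ERK, measured 12.9, 27.5 and 3.01 CPM. All 3 peaked at 3 h, but at 6 h Ier2 was still above the control and Junb and Egr1 were below it. The late log2 ratios were -1.59 (-1.63 to -1.54) for Junb, -1.01 for Ier2 and -3.19 (-3.34 to -3.05) for Egr1. Jun, another AP-1 subunit picked after its values were seen, peaked at 3 h in the same way (15.7, 51.6 and 31.6 CPM). Fos fell through both intervals instead (45.4, 20.2 and 6.93 CPM), as did the nuclear receptor gene Nr4a1 (20.6, 12.2 and 5.53 CPM). Junb overlaps Prdx2 on the opposite strand. Whether counting used strand is not given in the sources used here, so reads of such pairs may be shared.

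At 6 h, 26.6% of all genes lay above the control by the fold and 9.69% below it. Of the 29 genes that turned back, 5 were still above it at 6 h, 21 lay within it and 3 lay below. Id3, an inhibitor of helix-loop-helix factors and a target of BMP signalling, belonged to the first kind (46.1 CPM in control cells, 314 after 3 h and 185 after 6 h). Its late ratio of -0.77 (-0.79 to -0.74) removed only a part of a first ratio of 2.77. Id1, a paralog, was within the fold at both steps (242, 310.2 and 254 CPM), as was Bmp4 in the second (-0.30). Gjc1, a connexin gene, came back to the control level (40.8, 77.9 and 39.6 CPM), and so did Phlda1, a growth-factor response gene (33.2, 58.2 and 35.5 CPM). In the opposite direction Fam216a alone was lowered and came back (21.3, 14.6 and 24.2 CPM), by values just past the fold in the first step (-0.54).

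Genes that fell in both intervals included chaperone and metabolic genes of high level. Hspa8, the constitutive cytosolic Hsp70, measured 2835 CPM in control cells, 1125 after 3 h and 477 after 6 h, and its 2 steps were of similar size (-1.33 and -1.24). Mat2a, which makes S-adenosylmethionine, measured 288, 116 and 36.1 CPM. Tcf15, a helix-loop-helix factor of formative pluripotency, measured 231, 93.9 and 39.7 CPM. For Mat2a the second step (-1.68) was larger than the first (-1.31), and each library was below the one before it for all 3 genes. Few chaperone relatives passed the fold in the later interval on the CPM scale. Of 14 cytosolic chaperones above 10 CPM only Hspa8 and Hspd1 (-0.58, a mitochondrial chaperonin placed on this list) were lower, with a list median of -0.21. Ratios of 13 of the 14 were below 0, however, and 5 were lower by the fold per cell. Of 19 endoplasmic reticulum genes only Xbp1, a transcription factor of the unfolded protein response, was lower (-1.13, median -0.18), while 14 had a ratio below 0. Against the control, 6 of the 14 and 12 of the 19 were lower by the fold at 6 h, compared with 9.69% of all genes. Herpud1, which acts in endoplasmic reticulum degradation, went the other way within the fold, from 29.5 CPM in the control to 9.21 at 3 h and 12.6 at 6 h.

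The integrated stress response list, which holds targets of ATF4, showed falls and no rises past the fold. Of 22 measured entries 4 were lower: Chac1, a glutathione-degrading enzyme gene (22.6, 6.79 and 2.58 CPM in the control, 3 h and 6 h libraries), Slc7a5, an amino acid transporter gene (46.6, 36.7 and 14.8), Trib3, a pseudokinase gene (46.9, 19.3 and 10.9) and Mthfd2, of mitochondrial folate metabolism (195, 145 and 96.8). Each was lowest at 6 h, and Chac1 exceeded 10 CPM in the control alone. The late log2 ratios of the 4 genes were -1.39, -1.31, -0.82 and -0.58, against a list median of -0.16. By the same fold 3.68% of all genes were lower and 3.23% higher. Atf4 itself, looked up after the list had been read, was within the fold (0.11). All 13 mitochondrially encoded mRNAs lay below 0 in the later interval, from -0.55 for mt-Nd6 to -0.18 for mt-Co3, with a median of -0.31. On the CPM scale only mt-Nd6 passed the fold, but 5 of the 13 (mt-Nd1, mt-Nd2, mt-Nd3, mt-Nd4l and mt-Nd6) did with TMM factors and per cell, and the reads of mt-Nd6 may be shared with mt-Nd5 on the other strand. The nuclear genes of oxidative phosphorylation had a median of 0.09 over 78 members (-0.03 with TMM factors and -0.08 per cell), with none past the fold.

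**Figure D3:**
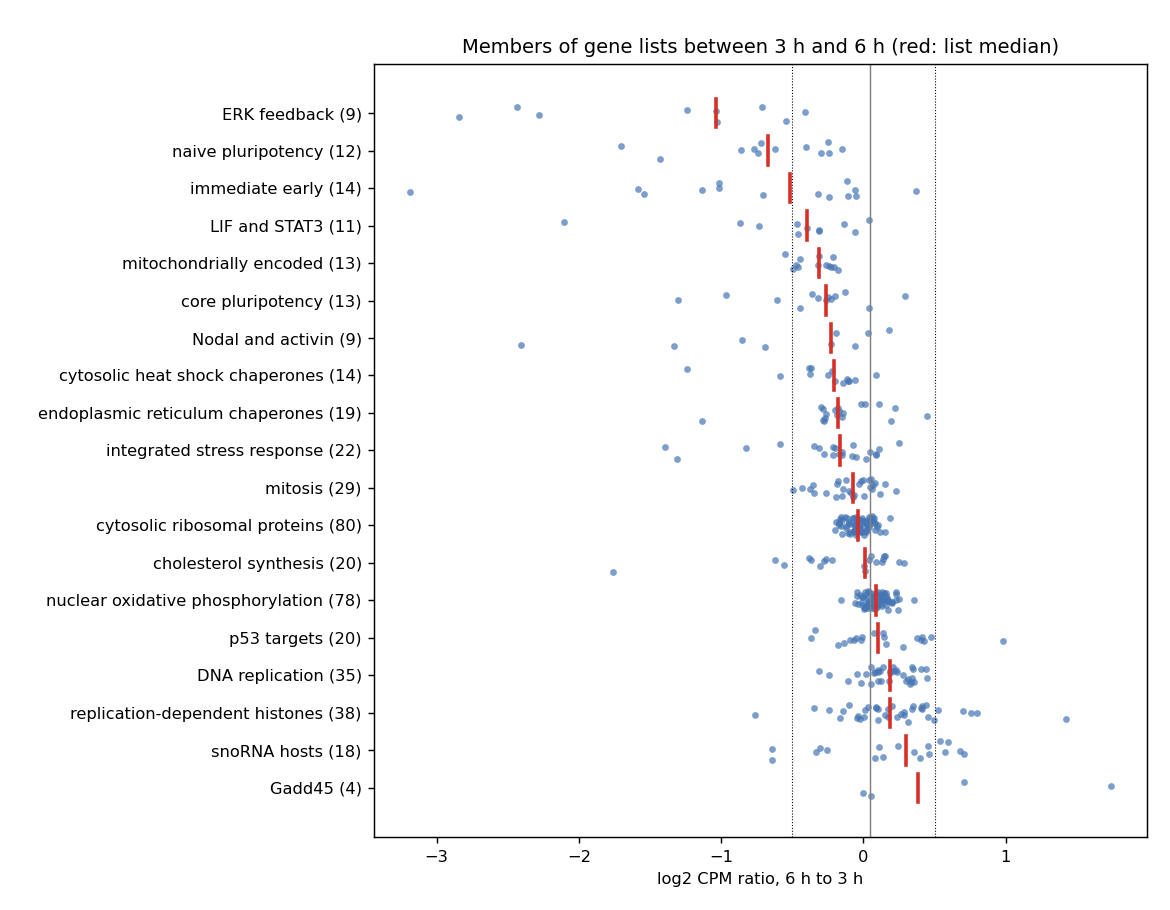
Log2 CPM ratios of 6 h to 3 h for the members above 10 CPM of 19 of the 37 gene lists (numbers in parentheses), with the list median in red, the median of all genes (0.04) as a grey line and the fold of 0.5 as dotted lines. The vertical scatter of points within a row has no meaning. ERK feedback genes lie farthest left by their median (-1.04), and the ribosomal and oxidative phosphorylation lists lie within the fold throughout.

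On the rising side, the Gadd45 genes, whose products respond to stress and growth arrest, gave the largest value. The list of 4 also took in Gadd45gip1, which is not itself a Gadd45 gene. Gadd45gip1 was level (136, 133 and 133 CPM in the control, 3 h and 6 h libraries, late ratio -0.002). With it included, the median was 0.38, and 2 of the 4 were higher and none lower, against 3.23% and 3.68% of all genes. Gadd45g, a protein-coding gene at chr13:51846678-51848468 on the plus strand, measured 1.09 CPM in control cells, 87.2 after 3 h and 292 after 6 h. Gadd45b measured 12.7, 91.6 and 149.9 CPM, and Gadd45a 38.9, 134 and 138 CPM. All 3 had risen at 3 h, but only Gadd45g and Gadd45b went on past the fold, with late log2 ratios of 1.74 (1.71 to 1.78) and 0.71 (0.68 to 0.75); Gadd45a was level (0.05). The promoter of Gadd45g is shown because it is the largest late rise and the only 1 of the 6 searched windows with a motif, the E-box CACGTG in capitals, 142 bases before the start site. It lies at chr13:51846425-51846724 on the plus strand (RefSeq, GRCm38.p6).
Gadd45g promoter: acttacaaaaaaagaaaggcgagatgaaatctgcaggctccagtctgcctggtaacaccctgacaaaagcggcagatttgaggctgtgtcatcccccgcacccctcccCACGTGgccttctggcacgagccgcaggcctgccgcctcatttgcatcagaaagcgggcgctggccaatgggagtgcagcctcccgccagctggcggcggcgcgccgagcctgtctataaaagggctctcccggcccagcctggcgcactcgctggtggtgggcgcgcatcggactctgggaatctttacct
This E-box was found in 11.6% of promoters of genes higher at 6 h, 8.17% of those lower and 11.3% of all 6081, a share in the risen genes near that of all genes.

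Cdkn1a, which encodes the cell cycle inhibitor p21, was the leading gene that rose in the later interval alone. It measured 28.3 CPM in control cells, 30.5 after 3 h and 60.1 after 6 h, a late log2 ratio of 0.98 (0.92 to 1.04). It is a known target of p53, and it was the only 1 of the 20 p53 targets above 10 CPM to pass the fold; none was lower, and the list median was 0.11 on the CPM scale, -0.01 with TMM factors and -0.06 per cell. The nearest others were Bbc3, which encodes the death protein PUMA (0.48), Rrm2b, a ribonucleotide reductase subunit gene (0.42), and Phlda3 (0.41), while Mdm2, the p53 ubiquitin ligase gene, was at -0.13. Cdkn2d, another cell cycle inhibitor gene, rose in both intervals (20.9, 47.0 and 74.6 CPM). Among the remaining late-only rises were Ankrd12 (0.76), Gps2, a corepressor subunit gene (0.67) and Gas8 (0.64).

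The other large rises mixed long noncoding RNAs, histone genes and genes of varied function that were low in the control. Hist1h2aa measured 0.296 CPM in control cells, 18.3 after 3 h and 49.2 after 6 h, and Hist3h2a 5.07, 129 and 224 CPM. Of the 38 replication-dependent histone entries above 10 CPM, which are near-identical copies in part, 35 were higher at 3 h than in the control. In the later interval 5 were higher, 1 was lower (the linker histone gene Hist1h1b, -0.76) and the median was 0.19. Over all genes 17.9% were higher at 3 h, and 3.23% were higher and 3.68% lower in the later interval. Polyadenylated RNA was tagged, so these values cover only that part of the histone transcripts. A930015D03Rik, a noncoding transcript antisense to H2-T22, H2-T23 and H2-T24, measured 4.64, 59.0 and 128 CPM. Long noncoding genes were 23 of the 246 higher genes (9.35%), 7 of the 280 lower (2.50%) and 114 of all 7608 (1.5%). Med22, a Mediator subunit gene, measured 14.3, 42.1 and 85.1 CPM and was joined by Med20 (0.57) and Med27 (0.52), 3 of 28 subunits, with a list median of 0.09; with TMM factors or per cell 1 subunit was higher and 1 lower, with a median of -0.03 under TMM. Slc16a6, a transporter gene of the monocarboxylate family, rose from 8.87 to 42.0 and 73.5 CPM. Acot8, a peroxisomal thioesterase gene that overlaps Snx21 on the other strand, rose from 28.0 to 55.1 and 103 CPM.

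Host genes of small nucleolar RNAs, whose spliced transcripts are known targets of nonsense-mediated decay, went on rising in part. Of 18 above 10 CPM, 10 were higher and 6 lower at 3 h than in the control, against 17.9% and 3.21% of all genes. In the later interval 5 were higher and 2 lower, against 3.23% and 3.68% of all genes, with a median of 0.30. With TMM factors or per cell 2 were higher and 2 lower. Snhg1 measured 118, 1168 and 1693 CPM in the control, 3 h and 6 h libraries, Snhg16 19.2, 131 and 213 CPM and Snhg17 22.2, 150.0 and 240.4 CPM. Their late ratios of 0.54, 0.71 and 0.68 were much smaller than their first ratios, and that of Snhg1 lay within the fold with TMM factors (0.42) and per cell (0.37). Gas5 (174, 809 and 1036 CPM) and Zfas1 (52.2, 621 and 852 CPM) rose at 3 h and stayed within the fold after it. Dancr, another host, had fallen at 3 h and was held (43.3, 10.4 and 8.27 CPM). The 14 nonsense-mediated decay factors themselves had a median of 0.01 with none past the fold, and 1 was lower by it with TMM factors or per cell.

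Genes raised at 3 h and then held formed the largest moving group, and some of its largest first steps were complete at 3 h. Txnip, an inhibitor of thioredoxin and of glucose uptake, measured 48.5 CPM in control cells, 438 after 3 h and 445 after 6 h. Zic5, a zinc finger factor, measured 5.11, 40.5 and 41.0 CPM. In both genes the 2 treated libraries nearly coincided. Among genes lowered and held, Kpna2, a nuclear import receptor gene, measured 72.3, 17.4 and 12.4 CPM. Its late log2 ratio of -0.48 (-0.58 to -0.39) was just within the fold on the CPM scale. With TMM factors (-0.59) and per cell (-0.64) it was past the fold. Of 1153 genes raised and held, 1049 were still above the control by the fold at 6 h.

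Several large gene classes stayed within the fold in the later interval on the CPM scale. Over all genes only 3.23% were higher and 3.68% lower, and above 1000 CPM 0.67% and 1.33%. An absence of calls in lists of this size therefore says little about a class. None of the 80 cytosolic ribosomal protein genes above 10 CPM (median -0.04), 78 mitochondrial ribosomal protein genes (0.08), 35 proteasome genes (0.10), 35 DNA replication genes (0.18), 29 mitosis genes (-0.08) or 23 nuclear transport receptors (-0.09) passed the fold on that scale. With TMM factors 2 of the mitosis genes and 3 of the nuclear transport receptors were lower by the fold, and per cell 5 and 3, while none of the other 4 lists had a member past it. On the TMM and per-cell scales all of these medians were lower, and only that of DNA replication stayed above 0 (0.07 and 0.02). With TMM factors the medians were -0.15 for cytosolic ribosomal, -0.03 for mitochondrial ribosomal and -0.01 for proteasome genes. Those of the mitosis genes and nuclear transport receptors were -0.19 and -0.20. The numbered zinc finger genes are a class of transcription factors. Of 161 of them 14 (8.70%) were lower in the later interval, against 3.68% of all genes, and 4 were higher, with a median of 0.04. At 3 h, 89 of the 161 had been higher than in the control and 3 lower, against 17.9% and 3.21% of all genes.

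The values per cell show whether a change was spread over the cells. Each cell was thinned to 15000 UMIs, which left no cell out, and shares are of the 1739 and 2554 cells. Cells with a Spry2 UMI made up 60.8% (exact 95% interval 58.5 to 63.1%) at 3 h and 18.2% (16.7 to 19.7%) at 6 h, and without thinning 87.8% and 41.6%. For Socs3 the shares were 47.4% and 15.8% (78.2% and 40.3% without thinning), and for Dusp6 41.9% and 10.5% (76.9% and 29.1%). Klf5 was still detected in 84.9% of cells at 6 h against 98.6% at 3 h, and its median fell from 6 to 2 UMIs per cell. Pou5f1, within the fold in the sums, had medians of 8 and 7 UMIs. The whole distribution of Klf5 was thus lower at 6 h, with 0.86% of cells at 10 or more UMIs, against 18.2% at 3 h.

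Gadd45g spread to more cells in the later interval. It had a UMI in 1.69% of control cells, 41.8% of cells at 3 h and 76.8% (75.1 to 78.4%) at 6 h, or 3.38%, 61.3% and 89.3% without thinning. The highest cell held 40 UMIs at 3 h and 51 at 6 h. At 6 h the median was 3 UMIs with quartiles of 1 and 6, against a median of 0 at 3 h. Gadd45b went from 59.9% to 74.5% of cells and Cdkn1a from 25.9% to 46.9%. Id3, which turned back, went from 75.6% to 61.8% and from a median of 3 to 1 UMIs. Free RNA, read from barcodes with 10 to 100 UMIs, held these genes at levels that followed the cells, for example 72.0 CPM at 3 h and 11.2 CPM at 6 h for Spry2 and 68.7 and 246 CPM for Gadd45g. A part of the low shares can come from it, which was not tested, and no cell type that should lack these genes was present for comparison.

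**Figure D4:**
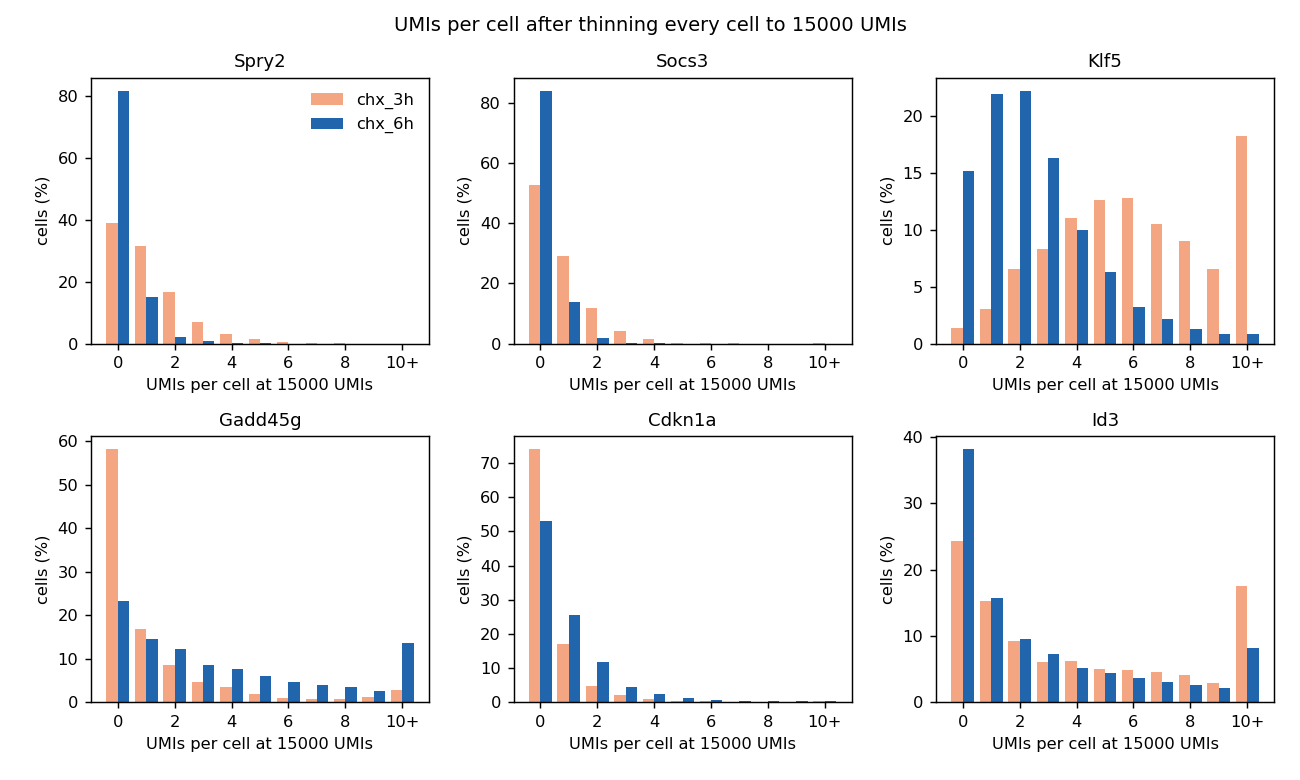
Share of cells (%) by number of UMIs of 6 genes after thinning every cell to 15000 UMIs, at 3 h (orange) and 6 h (blue); the last pair of bars is 10 or more UMIs, and vertical axes differ between panels and start at 0. The 6 h bars lie to the left of the 3 h bars for Spry2, Socs3, Klf5 and Id3 and to the right for Gadd45g and Cdkn1a.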

How the data were processed

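The authors deposited unnormalized UMI counts for every gene in every barcode, made with Cell Ranger 4.0.0 and mm10 per the submitters' processing notes. Each matrix listed 6794880 barcodes and 32285 genes, so cells had not been selected. How reads of overlapping or near-identical genes were assigned is not given in the sources used here. Identifiers were matched to GENCODE M21 of GRCm38 (32235 of 32285).

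Cells were barcodes with at least 15000 UMIs and 1 to 20% mitochondrial UMIs. The lower mitochondrial limit removed 62 control barcodes, 1 at 3 h and 8 at 6 h. Kept cells held 87.3%, 92.8% and 92.9% of the UMIs in the control, 3 h and 6 h libraries. UMIs were summed per library and scaled to CPM, and log2 ratios used a prior of 0.5 counts. Each group has 1 library, so no test was made. Intervals are exact Poisson for CPM, exact conditional binomial for ratios and exact Clopper-Pearson for shares, at 95%, and cover counting error only. The code of the calling step was run on simulated counts drawn from a shared profile with counting error only. Such counts hold no variation between libraries, so they cannot show how reliable the calls are. Promoters are from RefSeq and 3′ untranslated regions from GENCODE M21.

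Genes were named by a rule. It took the 12 largest rises and falls among genes of at least 20 CPM whose interval excluded equality and 5 genes per class, held classes by their first ratio. It also took, in each of 37 lists, the 4 members with the largest late ratios, and any member of a list of under 25. Some genes that this rule takes are not reported here. Promoters of 6 genes were searched and 3 are printed. Members and lists were chosen with earlier results of these data known. The 12 alternatives varied scaling, floor, prior, fold, cell limits and free RNA. Python 3.11.15, numpy 2.4.6, scipy 1.17.1, pandas 2.3.3, R 4.3.3 and edgeR 4.0.16 (for TMM factors) were used.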

Additional observations from a re-analysis of the deposited data

Results flagged for a closer look

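Among the genes described, 3 lay past the fold on opposite sides of the control in the treated libraries, above it at 3 h and below it at 6 h. With 1 library per time, the difference was not tested. For Junb the log2 ratio to the control was 1.06 after 3 h and -0.53 after 6 h, which differ by -1.59; per cell the 6 h ratio was -0.42, within the fold. For Sgk1, which encodes a kinase induced by serum and glucocorticoids, the CPM were 72.4 in control cells, 113 after 3 h and 40.5 after 6 h. Its ratios were 0.64 and -0.84, a difference of -1.48, and with TMM factors the 3 h ratio was 0.47, within the fold. For Egr1 the ratios were 1.09 and -2.10, a difference of -3.19, and both stayed past the fold with TMM factors (0.92 and -2.39) and per cell (1.36 and -1.99).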

How the results depend on the processing

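No paired analysis was possible because each group has 1 library. Of the 173 genes named by rule, without the further members of lists of under 25, 87 passed the fold. None of these changed direction under the 11 alternatives that keep the fold. Inside the fold under at least 1 of these alternatives were 6 (among them Btg3, Gas8, Hmgcs1, Med20 and Med27). Snhg1, not among the 173, went from 0.54 to 0.42 with TMM factors and 0.37 per cell. Of 3 list medians past the fold, that of the immediate early genes dropped inside it under at least 1. Counts below are in the order higher, lower, raised further, raised held, raised turned back, lowered further, lowered held, lowered turned back, late rise only and late fall only, and were 246, 280, 179, 1153, 29, 73, 170, 1, 66 and 178 as reported. With TMM factors they were 115, 470, 80, 712, 31, 177, 440, 1, 34 and 262. With mean UMIs per cell they were 83, 607, 78, 2622, 122, 54, 28, 0, 5 and 431. With a floor of 50 CPM they were 46, 86, 40, 293, 14, 13, 55, 0, 6 and 59. With a floor of 1 CPM they were 1072, 539, 652, 2088, 62, 159, 429, 11, 409 and 318. With a log2 ratio of 1 they were 11, 50, 7, 318, 4, 11, 28, 0, 4 and 35. Without cells above 2 times the median UMIs, 2 lowered genes turned back. A higher floor or fold tests fewer genes or calls fewer by construction; for the other settings the cause was not tested. The share of higher calls was 34.8% with the floor of 50 CPM, 66.5% with 1 CPM, 52.4% with the floor taken over the 3 h and 6 h libraries and 18% with a log2 ratio of 1. The other cell limits, the prior of 5 counts and the subtraction of 10% free RNA left every count within 1.5 times. Calls were more frequent at low level: 5.25% of genes of 10 to 20 CPM were higher and 3.87% lower, against 1.19% and 2.37% at 100 to 1000 CPM.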

Other observations

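Genes under the floor of 10 CPM held further late rises, which were looked up after the values had been seen. Of 4644 genes with a mean of 1 to 10 CPM, 17.8% were higher at 6 h than at 3 h by the fold and 5.58% lower, with a median log2 ratio of 0.13. Among the rises, Slc11a1, a metal ion transporter gene of phagocytes, had 60 UMIs in control cells, 100 after 3 h and 676 after 6 h (log2 ratio 2.36), and Ccn4, a matricellular protein gene of the Wnt response, 7, 120 and 673 (2.09). Among the falls, Sox7, an endoderm factor, had 618, 141 and 42 UMIs (-2.13), and Sp5, a target of Wnt signalling, 229, 127 and 56 (-1.57). All of these were under 10 CPM in every library.

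UMIs of 6 genes that mark the rare 2-cell-like state numbered 67 in control cells, 24 after 3 h and 1 after 6 h. Of these, 64 in the control and 24 at 3 h came from 1 cell each, so the decline in the sum rests on single cells.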
